A study of Mus musculus with 20 samples.

Results

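The 9 genes described here encode enzymes that carry carbon from acetyl-CoA to the branch points of isoprenoid and sterol synthesis in mouse liver: Acat2, Hmgcs1, Mvk, Pmvk, Mvd, Idi1, Fdps, Ggps1 and Fdft1. They are defined by their place in the pathway and were found by gene symbol among 55487 counted genes, and all 9 passed the filter on low counts. Messenger RNA was sequenced from whole liver of female mice, 15 weeks old, on a C57BL/6N background, which carried or lacked Plin2, the gene for a protein that coats lipid droplets. There were 4 groups of 5 libraries each: Plin2-null mice fasted for 24 h, Plin2+/+ mice fasted for 24 h, Plin2-null mice fed chow, and Plin2+/+ mice fed chow. For 10 libraries the label names feeding alone. Their genotype was read as Plin2-/- by elimination, because the design names only that genotype beside Plin2+/+, and they are called Plin2-null here. Litter, batch and day of collection are not labelled, and every p-value rests on the variation among these libraries, which may in part be technical. The design does not say whether the allele is lost in every cell or only in some.

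In the mevalonate pathway, acetyl-CoA units are joined into 3-hydroxy-3-methylglutaryl-CoA and reduced to mevalonate, which is phosphorylated and decarboxylated to isopentenyl diphosphate. Prenyl synthases then build farnesyl diphosphate, the branch point to squalene and cholesterol and to ubiquinone, dolichol and prenyl anchors of proteins. In liver, transcription of these genes is known to be driven by the membrane-bound factor SREBP-2, and in part by SREBP-1, which are released when sterols are low and, for SREBP-1c, when insulin is high.

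The libraries held between 25506471 and 65579038 counted reads. Plin2 itself averaged 60.4 ± 21.6 TPM, a unit of transcript abundance corrected for gene length and depth, in Plin2-null fasted livers and 1020 ± 242 TPM in Plin2+/+ fasted livers (SD, n = 5 each). In fed livers the means were 15.7 ± 5.21 TPM without Plin2 and 197 ± 51.2 TPM in Plin2+/+ (SD, n = 5 each), so the assigned genotypes and the Plin2 level went together. The summed TPM of 5 hepatocyte markers lay between 80180 and 161590 in all 20 libraries. The summed TPM of 5 Kupffer cell markers was 180 to 313 in Plin2-null fasted, 196 to 272 in Plin2+/+ fasted, 310 to 714 in Plin2-null fed and 404 to 444 in Plin2+/+ fed livers. The summed TPM of 5 bile duct markers was 13.1 to 31.7 in Plin2-null fasted, 13.8 to 27.3 in Plin2+/+ fasted, 42.4 to 77.1 in Plin2-null fed and 47.0 to 80.0 in Plin2+/+ fed livers. Of 5 pancreatic acinar markers, Cela3b was at 0 in every group, and the sum was 2.43 to 5.70 TPM in fasted and 9.52 to 35.95 TPM in fed livers. With fasting, 4 of the 5 Kupffer cell markers were called lower in each genotype in the test described next. Among all genes tested, 18.1% were called lower in Plin2-null and 21.7% in Plin2+/+ livers. Of the bile duct markers, 1 of 5 was called lower in Plin2-null and 3 of 5 in Plin2+/+ livers, and most of their sum was Spp1, which averaged 21.5 TPM in Plin2-null fasted and 16.0 TPM in Plin2+/+ fasted livers, against 51.8 TPM in Plin2-null fed and 56.8 TPM in Plin2+/+ fed livers. Both acinar markers with enough counts to be tested were called lower in each genotype. Of 5 stellate cell markers, 2 were called lower in Plin2-null and 3 in Plin2+/+ livers. Of 5 lymphocyte markers, 0 were called lower in Plin2-null and 3 in Plin2+/+ livers. Of 5 sinusoidal endothelium markers, 2 were called higher and 2 lower in Plin2-null livers, and 2 higher and 1 lower in Plin2+/+ livers. The hepatocyte markers went both ways, with 1 called higher and 2 lower in Plin2-null livers and 2 higher and 2 lower in Plin2+/+ livers. The part of these markers in the results on fasting was not tested. In bulk tissue, fewer cells of a type and less RNA per cell cannot be told apart.

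Fasting lowered 8 of the 9 pathway genes in both genotypes, by about 4-fold to more than 60-fold. The exception in both was Ggps1, the synthase of geranylgeranyl diphosphate. In Plin2-null livers, 8 of 9 members were called lower at a Benjamini-Hochberg adjusted p under 0.05 in edgeR's quasi-likelihood test over 16312 genes, where 18.1% of all genes tested were called lower. The fasted and fed Plin2-null libraries of the same 8 did not overlap, against 11.8% of all genes with no overlap and lower values. In Plin2+/+ livers 8 of 9 members were again called lower, against 21.7% of all genes, and again the 8 did not overlap, against 13.5% of all genes. The median log2 fold change of the 9 was -2.93 in Plin2-null and -3.56 in Plin2+/+ livers, where the medians over all genes were -0.01 in both. These are changes relative to TMM scaling, which centres on the bulk of genes. With library size alone the median of all genes moved to -0.21 in Plin2-null and to -0.16 in Plin2+/+ livers, and the same count of 8 members was called lower in each genotype. The split of all called genes changed with it, to 1376 higher and 4243 lower from library size alone against 2942 higher and 2954 lower with TMM in Plin2-null livers. In Plin2+/+ livers that split was 1854 higher and 4173 lower, against 3416 higher and 3541 lower with TMM.

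**Figure D1:**
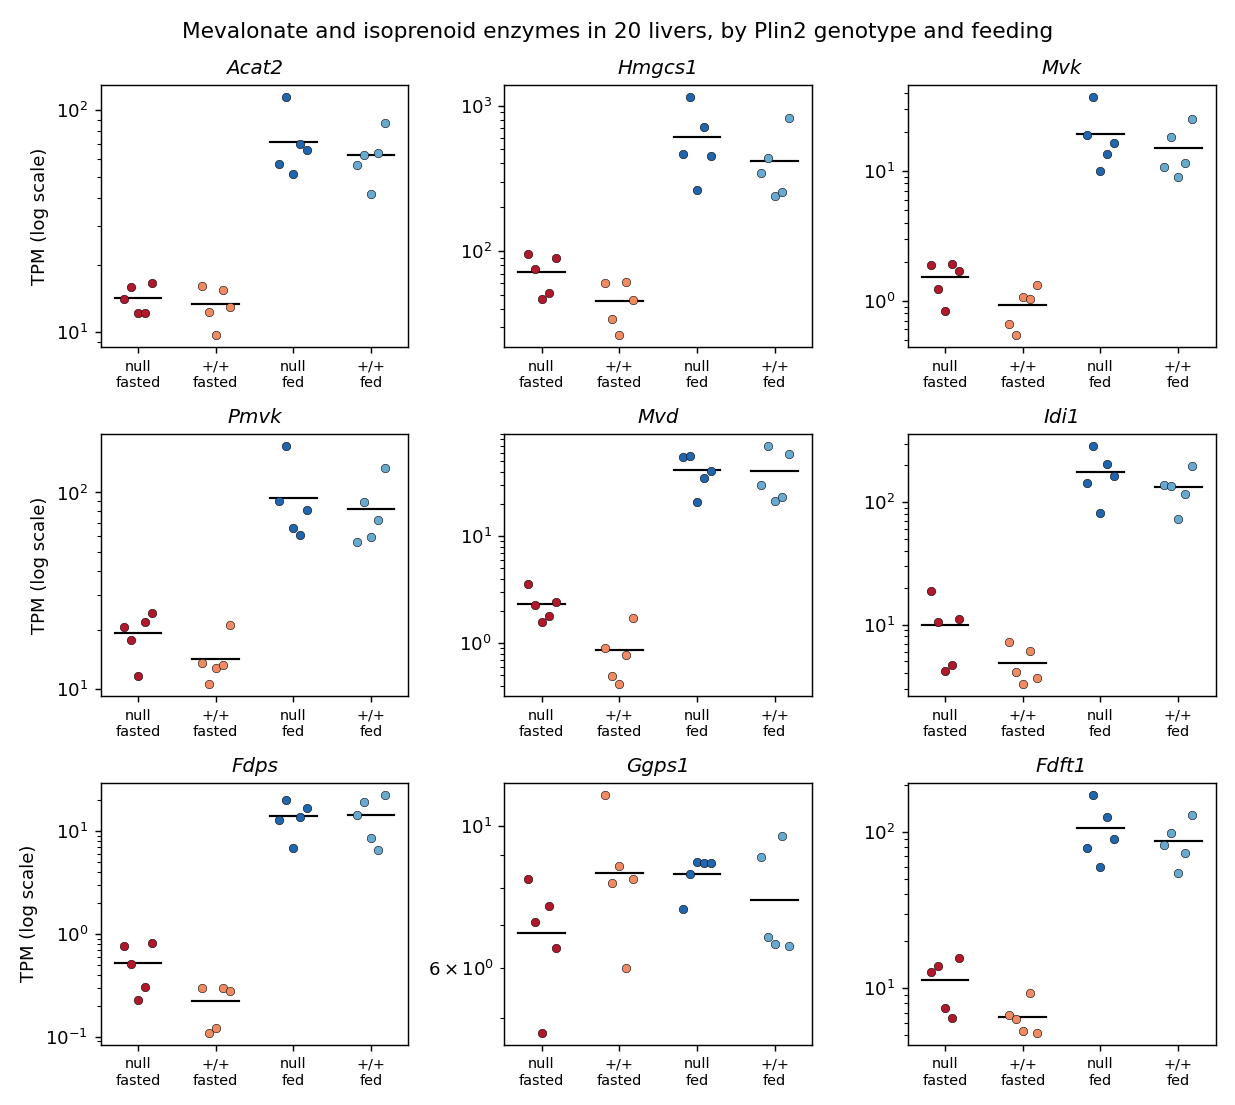
TPM of each of the 9 genes in every library (log axis, 1 point per library, bar at the group mean, n = 5 per group), in the order Plin2-null fasted, Plin2+/+ fasted, Plin2-null fed, Plin2+/+ fed. Fasted points lie below all fed points of the same genotype for 8 genes, while the Ggps1 groups overlap around 4.74 to 11.2 TPM.

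Promoter sequence is shown for 3 members that fell and for Ggps1, which was not called, because the contrast between them is the main pattern in these data. The windows run from 250 bases before to 50 bases after the annotated start in RefSeq (GRCm38.p6). They are chr13:119690101-119690400 on the plus strand for Hmgcs1, chr5:114444019-114444318 on the plus strand for Mvk, chr8:122443373-122443672 on the minus strand for Mvd and chr13:14063439-14063738 on the minus strand for Ggps1. Each is written 5′ to 3′ on the gene's own strand, and capitals mark a match on either strand to CACNCCAC, a core of the sterol regulatory element, or to CCAAT, the motif bound by NF-Y.
Hmgcs1: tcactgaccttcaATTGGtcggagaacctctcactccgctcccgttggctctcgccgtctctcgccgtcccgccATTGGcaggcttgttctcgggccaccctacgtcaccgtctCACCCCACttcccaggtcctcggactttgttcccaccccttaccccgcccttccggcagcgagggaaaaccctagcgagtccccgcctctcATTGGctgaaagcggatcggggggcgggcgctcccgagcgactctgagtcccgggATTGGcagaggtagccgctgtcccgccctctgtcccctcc
Mvk: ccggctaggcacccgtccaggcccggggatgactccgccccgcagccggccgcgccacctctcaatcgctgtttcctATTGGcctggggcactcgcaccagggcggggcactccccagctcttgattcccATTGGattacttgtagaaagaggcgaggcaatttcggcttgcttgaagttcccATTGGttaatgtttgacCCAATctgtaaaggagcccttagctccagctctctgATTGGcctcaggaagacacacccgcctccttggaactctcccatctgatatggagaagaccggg
Mvd: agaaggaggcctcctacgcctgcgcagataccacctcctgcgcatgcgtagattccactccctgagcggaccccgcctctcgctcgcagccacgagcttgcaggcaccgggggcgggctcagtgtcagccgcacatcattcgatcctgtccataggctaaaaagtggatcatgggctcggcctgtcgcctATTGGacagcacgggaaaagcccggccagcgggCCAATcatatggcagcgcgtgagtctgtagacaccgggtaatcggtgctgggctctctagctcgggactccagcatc
Ggps1: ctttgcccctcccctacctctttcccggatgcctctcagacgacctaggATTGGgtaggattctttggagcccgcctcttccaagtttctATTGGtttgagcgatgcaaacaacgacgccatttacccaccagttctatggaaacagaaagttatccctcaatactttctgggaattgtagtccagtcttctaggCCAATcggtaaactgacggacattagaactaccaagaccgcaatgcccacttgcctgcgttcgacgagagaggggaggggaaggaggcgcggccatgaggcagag
RefSeq windows matched 7 of the 9 members, with 8 windows in all since Pmvk had 2. CCAAT occurred on either strand in 6 of the 8 windows, against 37.4% of all 32851 windows of the same length. It was absent from the Acat2 window and from the Pmvk window that starts at 89459321, and both genes fell with fasting. Mvk held 5 matches, at bases 78, 131, 184, 201 and 237 of its window, and Hmgcs1 held 4, while 1.06% of all windows held 4 or more. Ggps1 held 3 matches, at bases 50, 91 and 196. Mvd and Idi1, which fell with fasting, held 2 matches each, and the other Pmvk window held 1. Some genes that fell thus held more matches than Ggps1 and others fewer. CACNCCAC occurred in 2 of the 8 windows, those of Hmgcs1 and Acat2, against 6.24% of all windows. The longer TCACNCCAC, which contains CACNCCAC, occurred only in the Hmgcs1 window among the 8, starting at base 114, and in 1.24% of all windows. GGGCGG, the GC box, was in 5 of the 8 windows, against 35.7% of all. CACGTG, the E-box, was in 0 of the 8, against 7.15% of all windows.

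The pathway opens with thiolase. Acat2, the cytosolic acetoacetyl-CoA thiolase (GRCm38 chromosome 17, 12942890 to 12960747, minus strand), had 12.2 to 16.6 TPM in Plin2-null fasted livers and 51.5 to 114 TPM in Plin2-null fed livers. Its log2 fold change with fasting was -2.02 ± 0.20 (SE), with an edgeR adjusted p of 9.0e-08. In Plin2+/+ livers the values were 9.70 to 16.1 TPM fasted and 41.7 to 86.7 TPM fed, a log2 fold change of -2.06 ± 0.20 (edgeR adjusted p 5.0e-08). It was the smallest decrease among the 8 in each genotype. The neighbouring Acat3 lies 2290 bases away on the same strand, and 1477 bases of Acat2 transcript matched it at 97.7% identity. Acat3 averaged 57.9 TPM in Plin2-null fasted and 291 TPM in Plin2-null fed livers, and 51.9 TPM in Plin2+/+ fasted and 273 TPM in Plin2+/+ fed livers. Its log2 fold changes were -2.02 ± 0.17 in Plin2-null and -2.24 ± 0.17 in Plin2+/+ livers (edgeR adjusted p 7.3e-09 and 1.9e-09). Reads from the stretch they share cannot be assigned to one of the pair with certainty, so the level and the change of Acat2 are both less sure. Acat3 went in the same direction, which cannot settle the change of Acat2, since shared reads would move both.

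Hmgcs1, the cytosolic HMG-CoA synthase (chromosome 13, 119690379 to 119708260, plus strand), was the most abundant of the 9 in every group. In Plin2-null fasted livers it stood at 95.3, 75.1, 46.8, 51.7 and 88.9 TPM, and in Plin2-null fed livers at 461, 1149, 263, 713 and 453 TPM. In Plin2+/+ fasted livers it stood at 60.6, 34.0, 26.4, 60.8 and 46.3 TPM, and in Plin2+/+ fed livers at 343, 439, 240.1, 255 and 817 TPM. Every fasted liver was below every fed liver, and the fed livers spanned more than a 3-fold range within each genotype. Its log2 fold change was -2.78 ± 0.38 in Plin2-null livers (edgeR adjusted p 1.5e-05) and -3.05 ± 0.38 in Plin2+/+ livers (edgeR adjusted p 4.5e-06). Hmgcs1 supplied 52.2% of the mean summed TPM of the 9 genes in Plin2-null fasted, 48.0% in Plin2+/+ fasted, 53.4% in Plin2-null fed and 48.7% in Plin2+/+ fed livers, so its share was similar while the sum changed.

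Mvk and Pmvk, the kinases that phosphorylate mevalonate and phosphomevalonate, differed in level and in the size of the change. Mvk (chromosome 5, 114444269 to 114460591, plus strand) had 1.88, 1.23, 0.835, 1.92 and 1.69 TPM in Plin2-null fasted livers and 19.0, 37.2, 9.89, 13.4 and 16.5 TPM in Plin2-null fed livers. In Plin2+/+ livers it had 0.657, 0.542, 1.06, 1.04 and 1.32 TPM fasted and 10.7, 18.3, 8.93, 11.4 and 25.0 TPM fed. The fasted libraries all lay under 2 TPM and the fed ones all above 8 TPM. The log2 fold change was -3.39 ± 0.34 in Plin2-null livers (edgeR adjusted p 2.8e-07) and -3.89 ± 0.36 in Plin2+/+ livers (edgeR adjusted p 6.2e-08). Mmab, which encodes a cobalamin adenosyltransferase and starts 209 bases from Mvk on the opposite strand, within the Mvk window printed above, fell too. Its log2 fold changes were -2.32 in Plin2-null livers (edgeR adjusted p 8.2e-10) and -2.49 in Plin2+/+ livers (edgeR adjusted p 3.5e-10). The next gene on the other side of Mvk, Ube3b, had 0.09 in Plin2-null and -0.14 in Plin2+/+ livers, neither of them called. Pmvk (chromosome 3, 89454541 to 89469013, plus strand) had 11.7 to 24.2 TPM in Plin2-null fasted and 60.5 to 173 TPM in Plin2-null fed livers, a log2 fold change of -2.02 ± 0.26 (edgeR adjusted p 4.6e-06). In Plin2+/+ livers Pmvk had 10.6 to 21.04 TPM fasted and 55.6 to 133 TPM fed, a log2 fold change of -2.39 ± 0.26 (edgeR adjusted p 5.4e-07).

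Mvd, Idi1 and Fdps, which make isopentenyl diphosphate, isomerise it and condense it to farnesyl diphosphate, fell most. Mvd (chromosome 8, 122433601 to 122443422, minus strand) had 3.60, 2.28, 1.58, 1.81 and 2.40 TPM in Plin2-null fasted livers and 54.6, 56.2, 20.997, 34.8 and 40.9 TPM in Plin2-null fed livers. In Plin2+/+ livers Mvd had 0.911, 0.492, 0.416, 0.771 and 1.71 TPM fasted and 29.8, 69.9, 21.2, 23.4 and 58.5 TPM fed. The highest fasted liver was thus less than 0.2 of the lowest fed one. The log2 fold change of Mvd was -3.87 ± 0.39 in Plin2-null livers (14.6-fold lower, edgeR adjusted p 3.8e-07) and -5.46 ± 0.43 in Plin2+/+ livers (44.1-fold lower, edgeR adjusted p 1.7e-08).

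Idi1 (chromosome 13, 8885501 to 8892451, plus strand) had 18.8, 10.6, 4.20, 4.68 and 11.1 TPM in Plin2-null fasted livers and 143, 288, 81.1, 203 and 162 TPM in Plin2-null fed livers. In Plin2+/+ livers it had 7.27, 4.07, 3.27, 6.11 and 3.65 TPM fasted and 139, 134, 72.3, 117 and 198 TPM fed. Its fasted values spread more widely in Plin2-null than in Plin2+/+ livers, without reaching any fed value. Fasting gave log2 fold changes of -3.87 ± 0.40 in Plin2-null livers (edgeR adjusted p 7.4e-07) and -4.61 ± 0.42 in Plin2+/+ livers (edgeR adjusted p 1.1e-07). A processed pseudogene, Gm13502, matched Idi1 transcripts at 100% identity over 684 bases and had log2 fold changes of -3.10 in Plin2-null and -4.24 in Plin2+/+ livers. Another, Gm35570, matched at 97.7% over 681 bases and was not called, with -0.61 in Plin2-null and -0.39 in Plin2+/+ livers. Reads from the stretches that Idi1 shares with these copies cannot be assigned with certainty, so its level and change are less sure. The fall of Gm13502 cannot settle the change of Idi1, since shared reads would move both. Idi2, the second isomerase gene, had too few counts to be tested.

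Fdps, farnesyl diphosphate synthase (chromosome 3, 89093588 to 89101959, minus strand), had the lowest fasted level and the largest change of the 9. In Plin2-null livers it stood at 0.761, 0.511, 0.227, 0.306 and 0.818 TPM fasted, from 15 to 64 counts per library, and at 12.8, 19.9, 6.83, 13.9 and 16.9 TPM fed. In Plin2+/+ livers it stood at 0.298, 0.109, 0.123, 0.295 and 0.279 TPM fasted, from 8 to 20 counts, and at 14.3, 19.4, 8.54, 6.57 and 22.7 TPM fed. Fasted livers of both genotypes stayed under 1 TPM. Its log2 fold changes were -4.47 ± 0.39 in Plin2-null livers (22.2-fold lower, edgeR adjusted p 5.2e-08) and -5.94 ± 0.44 in Plin2+/+ livers (61.4-fold lower, edgeR adjusted p 5.0e-09). On the log2(TPM + 1) scale, which understates the change of low genes, they were -3.25 in Plin2-null and -3.52 in Plin2+/+ livers.

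The level of Fdps is uncertain because of its copies. Its processed pseudogene Gm3571, 98.9% identical over 1062 bases, averaged 1.73 TPM in Plin2-null fasted and 39.1 TPM in Plin2-null fed livers, where Fdps itself averaged 0.525 and 14.1 TPM. In Plin2+/+ livers Gm3571 averaged 1.398 TPM fasted and 36.04 TPM fed, where Fdps averaged 0.221 and 14.3 TPM. Gm3571 had log2 fold changes of -4.20 ± 0.31 in Plin2-null and -4.54 ± 0.32 in Plin2+/+ livers. A further copy, Gm5873, had -2.96 in Plin2-null and -4.08 in Plin2+/+ livers. Fdps also shares 1124 exonic bases, 26.7% of its own, with the overlapping gene model Gm43738 on the same strand, which held at most 1 count in any library. The small nuclear RNA gene Gm22935 inside the Fdps span averaged 1.57 TPM in Plin2-null fasted and 35.4 TPM in Plin2-null fed livers. It was listed at 0 in every Plin2+/+ fasted liver and averaged 29.1 TPM in Plin2+/+ fed livers.

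The other branch enzymes behaved differently from each other. Fdft1, squalene synthase (chromosome 14, 63145150 to 63179578, minus strand), had 6.46 to 15.6 TPM in Plin2-null fasted and 59.9 to 174 TPM in Plin2-null fed livers, a log2 fold change of -2.93 ± 0.31 (edgeR adjusted p 5.5e-07). In Plin2+/+ livers Fdft1 had 5.18 to 9.38 TPM fasted and 55.0 to 129 TPM fed, a log2 fold change of -3.56 ± 0.32 (edgeR adjusted p 5.2e-08). It shares 774 exonic bases, 18.3% of its own, with Ctsb, the cathepsin B gene on the opposite strand, which had log2 fold changes of -0.39 in Plin2-null and -0.68 in Plin2+/+ livers.

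Ggps1 (chromosome 13, 14050659 to 14063488, minus strand) had 8.26, 7.07, 4.74, 7.50 and 6.45 TPM in Plin2-null fasted livers and 7.42, 8.40, 8.78, 8.76 and 8.75 TPM in Plin2-null fed livers. In Plin2+/+ livers it had 11.2, 8.14, 8.67, 5.99 and 8.25 TPM fasted and 8.94, 6.71, 6.54, 9.66 and 6.48 TPM fed. The ranges overlapped in both genotypes. In Plin2-null livers the log2 fold change was -0.03 ± 0.13 (edgeR adjusted p 0.888, 95% interval -0.28 to 0.23). It was -0.24 with library size alone, and 0.07 after correction for GC content in each library, none of these called. Over all 30 alternatives it ran from -0.325 to 0.07 and was never called. In Plin2+/+ livers it was 0.30 ± 0.13 (edgeR adjusted p 0.0658, 95% interval from 0.05 to 0.55). Without Plin2+/+ fed replicate 4 it was 0.37 with an edgeR adjusted p of 0.0282. Without Plin2+/+ fasted replicate 4 it was 0.38 (adjusted p 0.0178), and without Plin2+/+ fasted replicate 5 it was 0.35 (adjusted p 0.0418), so the call depended on single libraries. Other alternatives gave lower values that were not called, 0.24 without Plin2+/+ fed replicate 5 and as low as 0.12 with other processing. Over the fits in edgeR, DESeq2 or limma the adjusted p reached 0.589. Ggps1 shares 257 exonic bases with Arid4b on the opposite strand, which had log2 fold changes of 0.03 in Plin2-null livers and 0.47 in Plin2+/+ livers, the second called higher (edgeR adjusted p 0.00411).

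**Figure D2:**
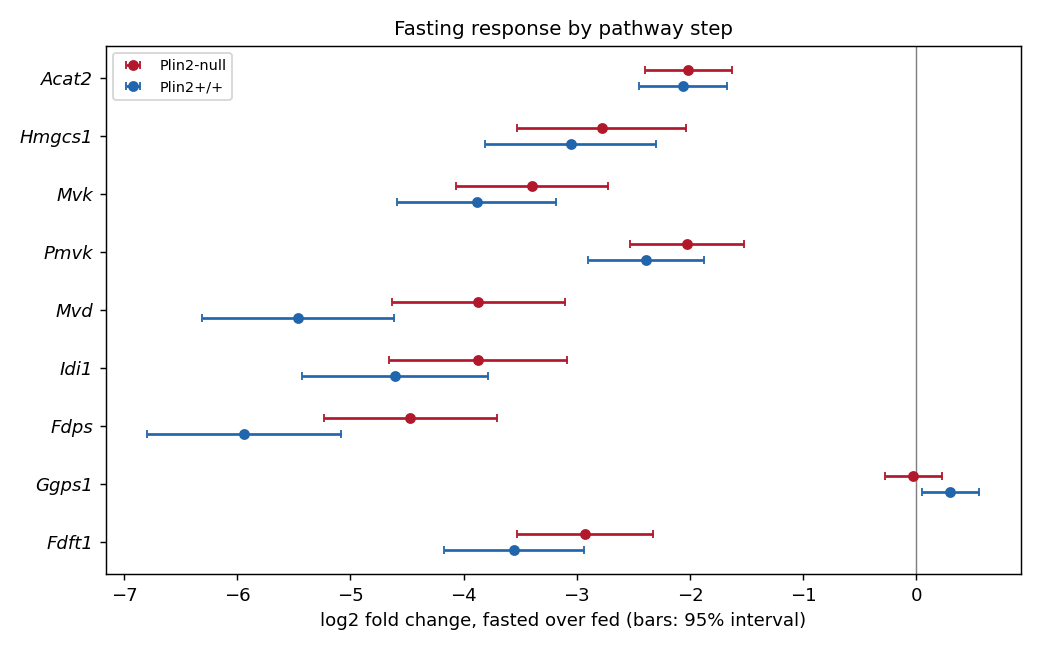
Log2 fold change of fasted over fed livers for each gene, in pathway order, in Plin2-null (upper point) and Plin2+/+ livers (lower point); bars are 95% intervals. From Acat2 to Fdft1 8 genes lie between -2.02 and -5.94, and Ggps1 lies at -0.03 and 0.30.

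The 9 genes had a summed level of 89.7 to 176 TPM in Plin2-null fasted and 67.7 to 117 TPM in Plin2+/+ fasted livers, against 568 to 2020 TPM in Plin2-null fed and 514 to 1476 TPM in Plin2+/+ fed livers. Ggps1 made up 4.96% of the mean sum in Plin2-null fasted and 8.89% in Plin2+/+ fasted livers, against 0.740% in Plin2-null fed and 0.891% in Plin2+/+ fed livers. The order of the levels changed with feeding. In fed livers of both genotypes Idi1 was second to Hmgcs1, at a mean of 176 TPM in Plin2-null and 132 TPM in Plin2+/+ livers, and Ggps1 was last. In fasted livers Pmvk was second, at 19.2 TPM in Plin2-null and 14.2 TPM in Plin2+/+ livers, and Fdps was last. Fdps was below the gene ranked just above it in 5 of 5 libraries of each fasted group, and the ranges were separate. Because of its copies the level of Fdps is uncertain, and so is its rank in each group. Most other neighbours in the order had overlapping ranges, for example Pmvk and Acat2, where Pmvk was above Acat2 in 4 of 5 Plin2-null fasted and in 2 of 5 Plin2+/+ fasted livers.

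Fed livers varied by several-fold within a genotype, and the 8 genes varied together. The mean of the 8 deviations from the group mean, on the log2 scale of depth-scaled counts (CPM), was, among fed livers, highest in Plin2-null replicate 2 and Plin2+/+ replicate 5, and lowest in Plin2-null replicate 3 and Plin2+/+ replicate 3. Over all 20 libraries, the 28 pairs among the 8 genes had a median Pearson r of 0.67 between their deviations, with a range of 0.36 to 0.92. Within the 10 fed libraries the median was 0.82 (0.60 to 0.97), and within the 10 fasted libraries it was 0.44 (-0.49 to 0.85). Counts were low for several genes in fasted livers, and the part of this in the lower median was not tested. Pairs of Ggps1 with the other 8 had a median r of -0.43 over 20 libraries (-0.50 to -0.0048), of -0.64 in the fed ones (-0.78 to -0.37) and of -0.15 in the fasted ones (-0.51 to 0.24). All these values come from the same libraries and share their depth and scaling, and they are given as a description.

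**Figure D3:**
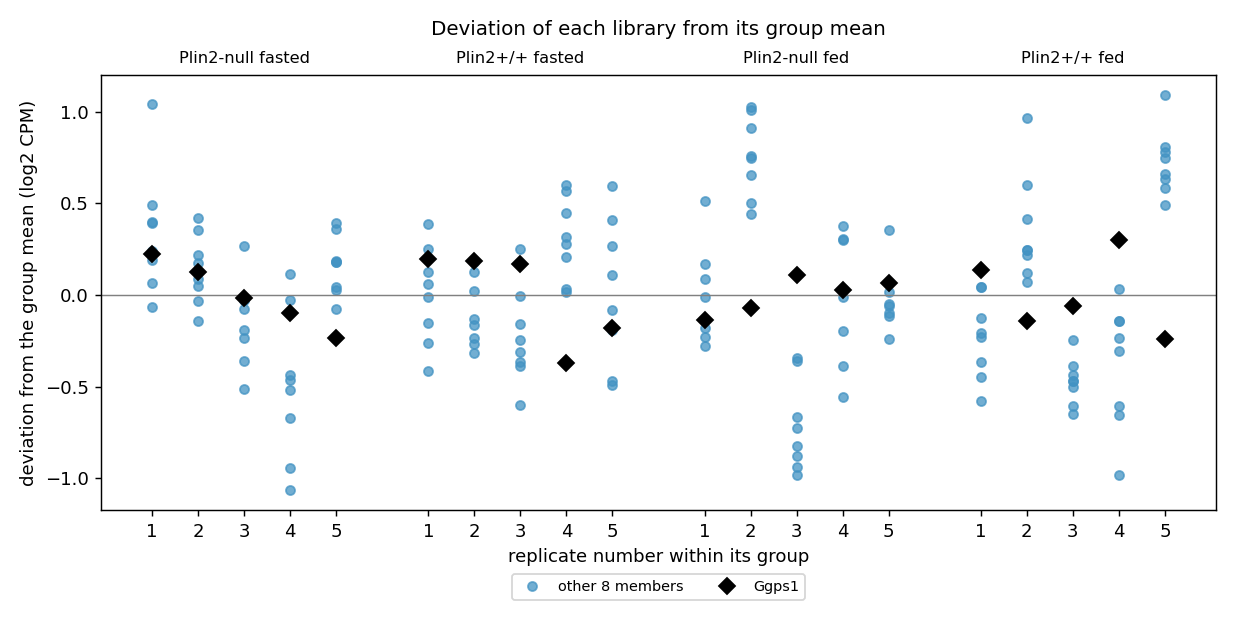
Deviation of each gene from its group mean (log2 CPM) in every library, for the 8 genes other than Ggps1 (circles) and for Ggps1 (diamonds). In Plin2-null fed replicate 2 and Plin2+/+ fed replicate 5 all 8 circles lie above 0 and Ggps1 below. In Plin2-null fed replicate 3 all 8 lie below 0 and Ggps1 above. In Plin2+/+ fed replicate 3 all 8 lie below 0, and so does Ggps1, at -0.06.

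The genes whose deviations were most like the mean of the 9, among 9179 genes with at least 5 CPM on average, were the Fdps pseudogene Gm3571 (r = 0.91 over 20 libraries), Cyp51 (0.91), Sqle (0.86), Nsdhl (0.85), Msmo1 (0.84) and Rdh11 (0.83). Cyp51, Sqle, Nsdhl and Msmo1 encode enzymes of the later steps to cholesterol, and Rdh11 encodes a retinol dehydrogenase. Of the 11 genes listed for those later steps, 6 were among the first 30 in this ranking.

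The later steps, from squalene to cholesterol, also fell with fasting. In both genotypes 10 of 11 genes were called lower and 0 higher. Among all genes 18.1% were called lower in Plin2-null and 21.7% in Plin2+/+ livers. The median log2 fold change of the 11 was -2.37 in Plin2-null and -2.50 in Plin2+/+ livers. Sqle, squalene epoxidase, averaged 3.21 TPM in Plin2-null fasted and 1.19 TPM in Plin2+/+ fasted livers, against 48.2 TPM in Plin2-null fed and 41.1 TPM in Plin2+/+ fed livers. Its log2 fold change was -3.62 in Plin2-null and -4.97 ± 0.36 in Plin2+/+ livers. Sc5d, a sterol desaturase, had -2.37 in Plin2-null and -2.50 in Plin2+/+ livers. Cyp51 had -2.90 in Plin2-null and -3.33 in Plin2+/+ livers, and Tm7sf2, a sterol reductase, had -0.88 in Plin2-null and -1.52 in Plin2+/+ livers. The 1 gene not called was Hsd17b7, a ketosteroid reductase, with -0.04 in Plin2-null livers (edgeR adjusted p 0.899) and 0.15 in Plin2+/+ livers (edgeR adjusted p 0.572).

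Genes that use the isoprenoid products, for dolichol, ubiquinone, haem A or protein prenylation, were called about as often as genes in general. Of 19 tested, 5 were called higher and 2 lower in Plin2-null livers (median log2 fold change 0.05), which is 7 of 19 against 36.1% of all genes called in either direction. In Plin2+/+ livers 6 were called higher and 2 lower (median 0.10), which is 8 of 19 against 42.6% of all genes. With library size alone the counts were 3 higher and 4 lower in Plin2-null livers (median -0.17) and 2 higher and 4 lower in Plin2+/+ livers (median -0.05), so the balance of this group depended on the scaling. Rabggtb, a subunit of the transferase that adds geranylgeranyl groups to Rab proteins, averaged 69.1 TPM in Plin2-null fasted and 90.8 TPM in Plin2+/+ fasted livers, against 43.7 TPM in Plin2-null fed and 43.0 TPM in Plin2+/+ fed livers. Its log2 fold changes were 0.93 in Plin2-null and 1.23 in Plin2+/+ livers. Dolk, dolichol kinase, had 0.64 in Plin2-null and 0.48 in Plin2+/+ livers, both called. Trit1, which adds an isopentenyl group to transfer RNA, had 0.33 in Plin2-null livers, not called, and 0.60 in Plin2+/+ livers, called. Dhdds, a subunit of the enzyme that builds the dolichol chain, had -0.22 in Plin2-null livers, not called, and -0.42 in Plin2+/+ livers, called. Dpagt1, the first enzyme of N-glycan assembly on dolichol, was called lower in both, with -0.35 in Plin2-null and -0.52 in Plin2+/+ livers.

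Of 7 genes that control or process SREBP, 2 were called higher and 3 lower in both genotypes. The share of all genes called in either direction was 36.1% in Plin2-null and 42.6% in Plin2+/+ livers. Srebf1, the gene for SREBP-1, averaged 5.10 TPM in Plin2-null fasted and 2.20 TPM in Plin2+/+ fasted livers, against 61.4 TPM in Plin2-null fed and 62.0 TPM in Plin2+/+ fed livers. Its log2 fold change was -3.32 in Plin2-null and -4.70 ± 0.29 in Plin2+/+ livers. Srebf2, for SREBP-2, had -1.02 in Plin2-null and -1.24 in Plin2+/+ livers. Insig1, which retains SREBP in the endoplasmic reticulum and is itself a known SREBP target, had -3.81 in Plin2-null and -3.74 in Plin2+/+ livers. Insig2, a related retention protein, ran the other way, at 754 TPM in Plin2-null fasted and 958 TPM in Plin2+/+ fasted livers, against 194 TPM in Plin2-null fed and 166 TPM in Plin2+/+ fed livers. Its log2 fold changes were 2.23 in Plin2-null and 2.69 in Plin2+/+ livers. Mbtps2, a protease that cuts SREBP, had 0.42 in Plin2-null and 0.60 in Plin2+/+ livers; with library size alone 1 of the 7 genes was called higher in Plin2-null livers, not 2.

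Genes for acetyl-CoA supply, listed together with mitochondrial counterparts of pathway enzymes, went in both directions. Of 8 tested, 4 were called higher and 4 lower in Plin2-null livers, and 3 higher and 4 lower in Plin2+/+ livers. Among all genes 36.1% were called in either direction in Plin2-null and 42.6% in Plin2+/+ livers. With library size alone 3 were called higher and 4 lower in each genotype. Acly, which makes cytosolic acetyl-CoA from citrate, had a log2 fold change of -2.23 in Plin2-null and -2.67 in Plin2+/+ livers. Acat1, the mitochondrial thiolase, had 1.12 in Plin2-null and 0.95 in Plin2+/+ livers, where Acat2 had -2.02 in Plin2-null and -2.06 in Plin2+/+ livers.

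**Figure D4:**
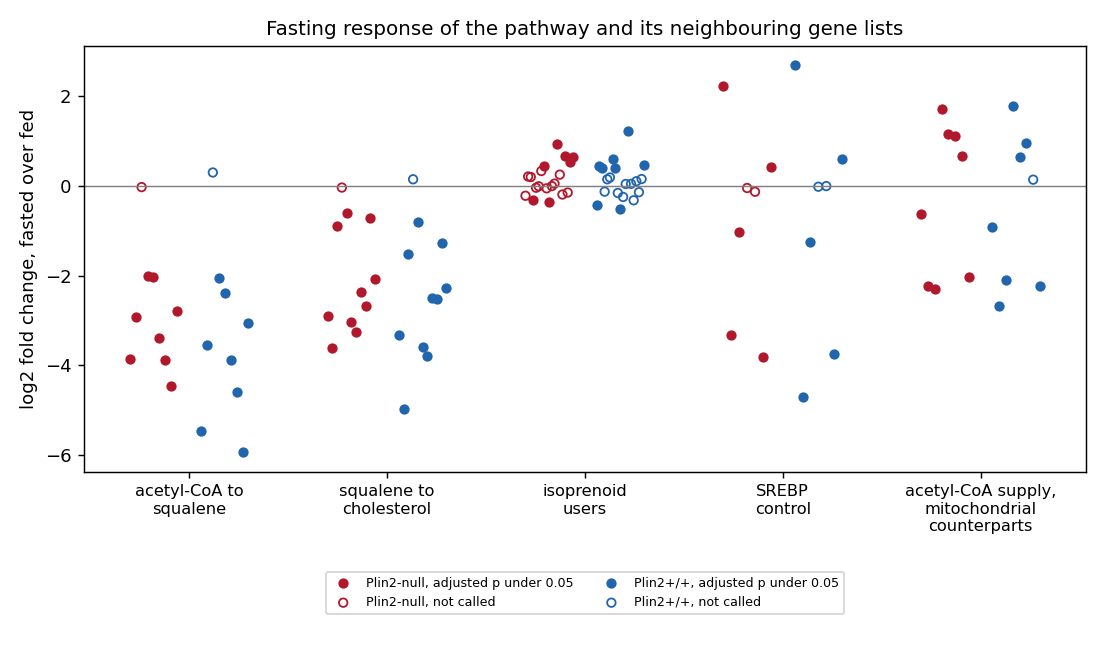
Log2 fold change of fasted over fed livers for the 9 members (acetyl-CoA to squalene) and 4 neighbouring gene lists, each gene a point, Plin2-null left and Plin2+/+ right; filled points have an edgeR adjusted p under 0.05. The members and the 11 later cholesterol genes lie almost wholly below 0, and the 19 isoprenoid users lie between -0.52 (Dpagt1) and 1.23 (Rabggtb), both in Plin2+/+ livers.

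The design also sets Plin2-null against Plin2+/+ livers within each feeding state. In fasted livers 0 of 9 members were called in edgeR's test, where 3.24% of all genes tested were called in either direction. Without adjustment, 4 of 9 had a p under 0.05 in the direction of higher in Plin2-null livers, against 12.9% of all genes. The fold changes of 8 of the 9 were above 0, against 51.7% of all genes, with a median log2 fold change of 0.75 for the 9 and 0.02 over all genes. The 9 share their libraries and vary together, so they do not count as 9 separate observations. The same fasted libraries also enter the fasting comparisons above.

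Mvd showed the widest gap. Its fasted levels, 1.58 to 3.60 TPM in Plin2-null and 0.416 to 1.71 TPM in Plin2+/+ livers, overlapped in TPM only because Plin2+/+ fasted replicate 5 was above the lowest Plin2-null fasted liver, replicate 3. In TMM-scaled CPM they did not overlap, at 1.22 to 2.78 CPM in Plin2-null and 0.354 to 1.19 CPM in Plin2+/+ livers. The log2 fold change was 1.53 ± 0.44 with an edgeR adjusted p of 0.0562, with 12 to 46 counts per library in Plin2+/+ fasted livers. DESeq2 gave 1.52 with an adjusted p of 0.00228. Without Plin2+/+ fasted replicate 5, edgeR gave 1.87 with an adjusted p of 0.0215. Mvd was also called without Plin2+/+ fed replicate 2 (adjusted p 0.0469) and without Plin2+/+ fed replicate 4 (0.0495), which do not enter the difference itself but enter the estimate of the spread. Over 30 alternative fits in edgeR, DESeq2 or limma, Mvd was called in 6. Its log2 fold change ran from 0.85 to 1.87 in these fits, and the adjusted p reached 0.223.

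Fdps was at 0.525 ± 0.264 TPM in Plin2-null fasted and 0.221 ± 0.096 TPM in Plin2+/+ fasted livers (SD, n = 5 each), a log2 fold change of 1.34 ± 0.47 (edgeR adjusted p 0.0974, DESeq2 adjusted p 0.0153). Idi1 was at 9.86 ± 5.93 TPM in Plin2-null fasted and 4.87 ± 1.73 TPM in Plin2+/+ fasted livers (SD, n = 5 each), a log2 fold change of 1.05 ± 0.37 (edgeR adjusted p 0.106, DESeq2 adjusted p 0.0286). Both pairs of groups overlapped, and Plin2-null fasted replicates 3 and 4 were the low ones for both genes. Over 30 alternative fits in edgeR, DESeq2 or limma, each of these genes was called in 1, that with DESeq2. In these fits the log2 fold change of Fdps ran from 0.31 to 1.54, with an adjusted p of up to 0.599. That of Idi1 ran from 0.70 to 1.25, with an adjusted p of up to 0.328. Fdft1 had a log2 fold change of 0.79 ± 0.29 (edgeR adjusted p 0.114). Mvk had 0.75 ± 0.36 (adjusted p 0.211) and did not overlap in CPM, although it did in TPM. Among all genes, 1.87% had no overlap in CPM and higher values in Plin2-null fasted livers, against 2 of the 9 members, Mvk and Mvd. Hmgcs1 had 0.70 ± 0.36, Pmvk 0.46 ± 0.25 and Acat2 0.15 ± 0.19, and Ggps1 was the only one below 0, at -0.28 ± 0.13 (adjusted p 0.194).

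Of the genes around the pathway, Sqle was called higher in Plin2-null fasted livers, with a log2 fold change of 1.48 ± 0.33 (edgeR adjusted p 0.0270), as were Tm7sf2 with 0.67 (adjusted p 0.0182) and Srebf1 with 1.28 ± 0.26 (adjusted p 0.0186). These were 2 of 11 later cholesterol genes and 1 of 7 SREBP control genes, where 3.24% of all genes were called. Rabggtb was called lower, with -0.36 (adjusted p 0.0320). With limma on log2(TPM + 1), 0 of these genes were called. The fasted libraries differed in their trend with GC content: the gap in log2 CPM between genes at the 90th and the 10th percentile of GC ran from -0.02 to 0.44 in Plin2-null fasted livers, and was -0.64 and -0.61 in Plin2+/+ fasted replicates 1 and 2 and -0.17 to 0.29 in replicates 3 to 5. With that trend removed, an alternative chosen after seeing the data, Sqle had 1.51 (adjusted p 0.0272), Tm7sf2 0.63 (0.0155) and Srebf1 1.02 (0.0201), and Rabggtb, at -0.27 (0.0577), was no longer called.

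A few cell type markers were also called between the genotypes in fasted livers, where 3.24% of all genes were called. The median log2 fold change of Plin2-null over Plin2+/+ was 0.86 for 5 lymphocyte markers, of which Ms4a1, a B cell gene, was called higher (1.44, edgeR adjusted p 0.0437). Their summed level was 1.66 to 4.83 TPM in Plin2-null fasted and 1.06 to 3.19 TPM in Plin2+/+ fasted livers. For 5 bile duct markers the median was 0.67, with 0 called. It was 0.02 for 5 Kupffer cell markers and -0.10 for 5 sinusoidal endothelium markers, with 0 called in either list. Of 5 stellate cell markers Colec11 was called higher (0.52, adjusted p 0.0318), and of 5 hepatocyte markers Cps1, the first enzyme of the urea cycle, was called lower (-0.97, adjusted p 0.0318). The part of these differences in the values of the pathway genes was not tested.

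In fed livers 0 of 9 members were called, where 0.0184% of all genes were called, 3 of them, with 694 at an unadjusted p under 0.05. The log2 fold changes of Plin2-null over Plin2+/+ ran from -0.12 for Fdps to 0.43 for Hmgcs1, all with adjusted p of 1.00 in edgeR. The 95% intervals were wide for some genes, from -0.27 to 1.13 for Hmgcs1, and narrow for Ggps1, from -0.20 to 0.30. Fed levels of Mvd averaged 41.5 ± 14.6 TPM in Plin2-null and 40.6 ± 22.2 TPM in Plin2+/+ livers (SD, n = 5 each).

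**Figure D5:**
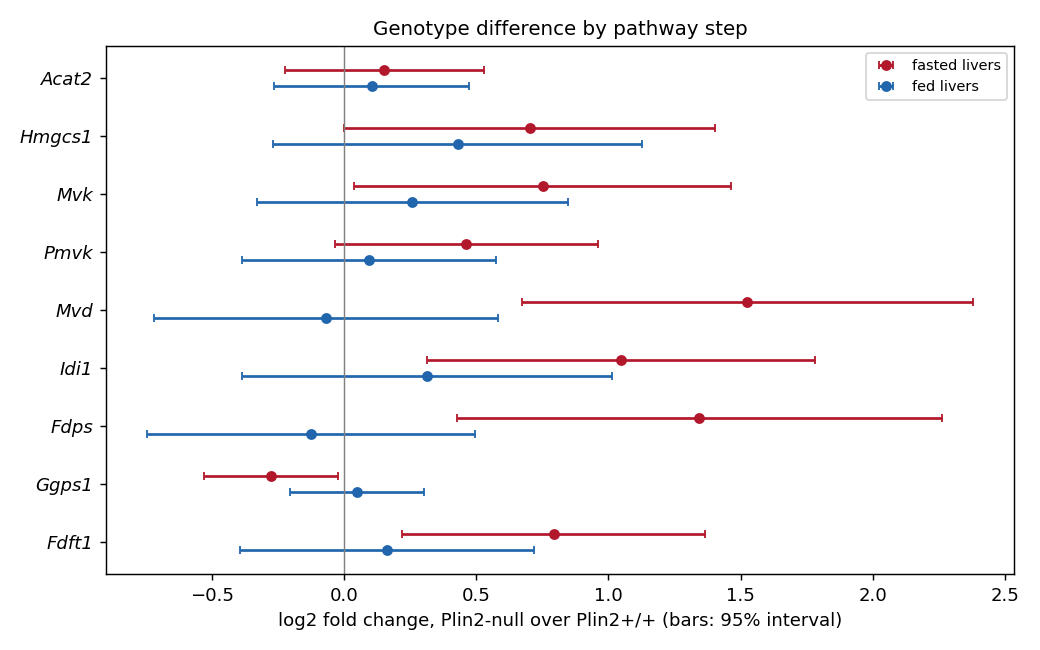
Log2 fold change of Plin2-null over Plin2+/+ livers for each gene, in pathway order, in fasted (upper point) and fed livers (lower point); bars are 95% intervals. Mvd, Fdps and Idi1 have the highest fasted values, 1.53, 1.34 and 1.05, and 0 of 9 genes passed the adjusted threshold in either feeding state.

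Whether the genotype difference depended on feeding was tested by the interaction, the fasting response in Plin2-null minus that in Plin2+/+ livers. For 0 of 9 members was it called, and 0% of all genes were called by edgeR, with 2250 genes at an unadjusted p under 0.05 and 63 called by DESeq2. Mvd had an interaction of 1.59 ± 0.55 (edgeR adjusted p 0.255) and Fdps of 1.47 ± 0.57 (adjusted p 0.289), and both intervals were wide, for Mvd from 0.52 to 2.67. The remaining 7 ran from -0.33 for Ggps1 to 0.73 for Idi1.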

How the data were processed

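Messenger RNA of 20 mouse livers was measured from strand-specific libraries, per the labels' protocols. The first table holds raw read counts per Ensembl gene, deposited by the authors; HISAT2 1.2.1 and featureCounts 1.4.6-p1 are listed in the submitters' processing notes. Those notes name the human build GRCh38, although the identifiers are mouse, so the build behind the counts is unclear, and the strand setting is also unknown (not given in the sources). Antisense and overlapping genes, and near-identical copies, are therefore uncertain. The other table holds TPM values deposited by the authors. For 7109 genes the ratio of count to TPM, after 1 factor per library, varied by a relative SD of at most 1.07e-09 between libraries, so both tables come from the same counts. The header of the TPM table is shifted by 1 cell, and columns were read with that shift undone.

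Groups came from the labels. None of 40 within-group pairs of libraries agreed within sampling noise (smallest chi-square per degree of freedom 45.3), so each library counted once. Symbols were found for 55141 of 55487 identifiers. Positions, neighbours and transcript copies (BLAST 2.17.0, at least 90% identity over 200 bases) came from the GENCODE annotation of GRCm38, and promoter windows from RefSeq.

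Counts were fitted in edgeR 4.0.16 (R 4.3.3; filterByExpr, TMM, robust glmQLFit, glmQLFTest) over all 20 libraries with 1 coefficient per group. Genes were called at a Benjamini-Hochberg adjusted p under 0.05 over 16312 genes. TPM gives levels, since it is per length; CPM is TMM-scaled. Standard errors are the log2 fold change divided by the square root of F. Likeness of genes was the Pearson r of deviations of log2(CPM + 0.5) from group means. In simulated counts for fasting in Plin2+/+ livers over 16122 genes, 64% of genes changed 2-fold and 88% of genes changed 4-fold were recovered. For Plin2 loss in fasted livers, over 16127 genes, 70% and 84% were. Only 50 genes were changed at each fold, far fewer than were called with fasting, so recovery in the data may differ. Alternatives were DESeq2 1.42.0, limma 3.58.1 (voom, and log2 TPM with a pseudocount of 1 or 0.1), other scalings and filters, fits of the compared groups only, leaving out each library, and removal of GC trends. Genes named were the 9 members, Plin2, neighbours and copies of members, the 6 genes most like the members, and of each list the 4 with the smallest adjusted p for fasting in Plin2+/+ livers together with relatives of members. A gene that this rule names is not reported here. Dpagt1, Mbtps2, Hsd17b7, Spp1, Ms4a1, Colec11 and Cps1 were named after their values were seen. The members and lists were chosen with earlier results of these data known.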

Additional observations from a re-analysis of the deposited data

Results flagged for a closer look

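Libraries far from the others of their group were sought for the 9 members in 4 groups by Dixon's criterion for 5 samples (critical value 0.71), 36 tests in all, of which chance flags about 1 in 20. It marked 3 values. Pmvk stood at 21.04 TPM in Plin2+/+ fasted replicate 5, where the next highest library had 13.4 TPM and the lowest 10.6 TPM. Pmvk stood at 173 TPM in Plin2-null fed replicate 2, where the next highest had 90.3 TPM. That library also had the highest mean deviation of the 8 genes that fell with fasting. Ggps1 stood at 7.42 TPM in Plin2-null fed replicate 1, the lowest of 5, where the next lowest had 8.40 TPM and the highest 8.78 TPM.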

How the results depend on the processing

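The count of 8 members lower with fasting held in both genotypes under every alternative run. The count called in either direction was 8 to 9 without 1 library in Plin2+/+ livers, since Ggps1 passed, as higher, in 3 of those fits. For Plin2 loss in fasted livers the count of members called was 0, and it was 3 with DESeq2, 1 with a filter of at least 1 CPM in at least 10 libraries, 1 with only the groups compared, and 0 to 1 without 1 library. The count of all genes called there, 528, was 1433 with DESeq2, 108 with library size alone, 319 with no filter, 27 and 39 with limma on log2(TPM + 1) and log2(TPM + 0.1), and 104 with only the groups compared. Leaving out 1 library gave 13 (without Plin2+/+ fasted replicate 2) to 1794 (without Plin2+/+ fasted replicate 5); it gave 15 without Plin2-null fasted replicate 5, 84 without Plin2+/+ fasted replicate 3, 89 without replicate 1 and 963 without replicate 4 of that group, 156 without Plin2-null fasted replicate 3 and 210 without its replicate 1, 290 without Plin2+/+ fed replicate 3, and 316 without Plin2-null fed replicate 3. For Plin2 loss in fed livers 3 genes were called, 7 with DESeq2 and 3 to 4 without 1 library. For the interaction 0 genes were called, 63 with DESeq2, 2 with voom, 1 with no filter, 2 with the stricter filter, and 0 to 1 without 1 library. The cause of these shifts was not tested. For single members 0 called values changed sign, and with fasting 0 values lost a call. For Plin2 loss and for the interaction 0 members were called in the main fit, so no call could be lost there. With fasting, 3 of 270 alternative values in Plin2-null livers changed sign without being called, and 3 of 270 in Plin2+/+ livers gained a call. For Plin2 loss in fasted livers 8 of 270 gained a call, and 18 of 270 in fed livers and 11 of 261 for the interaction changed sign without being called. No paired analysis was possible because the labels give every library its own number, so groups share none. Depth limits Fdps, Mvd and Mvk most, with 8 to 20, 12 to 46 and 28 to 51 counts per library in Plin2+/+ fasted livers.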
